A study of Mus musculus with 8 samples.

Results

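Fatty acid uptake and the lipoprotein lipase system were examined in mice lacking LPA4, a receptor for lysophosphatidic acid, using subcutaneous fat of the groin (inguinal white adipose tissue). The system was taken as 10 genes, namely Lpl, Gpihbp1, Angptl4, Cd36, Fabp4, Fabp5, Slc27a1, Slc27a4, Vldlr and Lrp1, out of 18193 genes measured. All 10 were found, with 25 probe sets that the platform annotation assigns to a single gene, and the probe set with the highest mean over the 8 arrays stood for its gene. The LPA4-KO group was 4 male mice with the genotype Lpar4 -/Y, since the gene lies on the X chromosome, and the WT group was 4 male wild-type mice. Both groups were littermates with a C57BL/6 background, aged 12 weeks, kept on standard chow with no further agent or allele named in the labels. How the allele was made, and whether it acts on fat cells directly, is not given in the sources used here. RNA of each mouse was hybridised to its own 3' expression array. The values were taken to be log2 signals, a scale read from the values themselves, on which a difference of 1 is a doubling of signal. Every difference is LPA4-KO minus WT.

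Lipoprotein lipase, the product of Lpl, cuts triglycerides of circulating lipoproteins into fatty acids at the capillary wall. Fat cells make the enzyme, GPIHBP1 carries it across the capillary cell and holds it there, and ANGPTL4 inactivates it. The freed fatty acids enter the cell with the help of CD36 and of the fatty acid transport proteins, are carried inside it by the fatty acid binding proteins, and lipoprotein particles themselves are bound by receptors of the LDL receptor family such as VLDLR and LRP1.

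Of the 10 genes, Lrp1 was lower and Vldlr was higher in LPA4-KO fat, though Vldlr passed the adjusted p threshold in some fits only. Gpihbp1 was lower in every LPA4-KO array without passing, and the 2 probe sets of Angptl4 gave different answers. The genes that make the enzyme and carry the fatty acids differed little or could not be resolved. With limma over all genes, 1 of the 10 passed an adjusted p of 0.05, Lrp1, which fell; 4.03% of all genes passed in either direction and 1.64% were lower. Over the 5173 genes whose SD across the 8 arrays was at least 0.01, called varying below, 2 of the 7 varying members passed, Lrp1 and Vldlr, against 27.1% of varying genes, so the share of these genes called was near the background. LPA4-KO and WT values were fully separate for 3 of the 7 varying members (Gpihbp1, Vldlr and Lrp1), against 33.2% of varying genes. With the replicate number as a block 1 of the 7 passed (Lrp1), against 19.5%, and when the block was the split into numbers 1 and 2 and numbers 3 and 4, 2 passed, against 27.4%. With each gene at its brightest varying probe set, a choice made after seeing the data, 1 of the 10 passed over all genes, against 4.32%. The median difference was 0.03 over the 7 varying members and 0.01 over all varying genes.

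**Figure D1:**
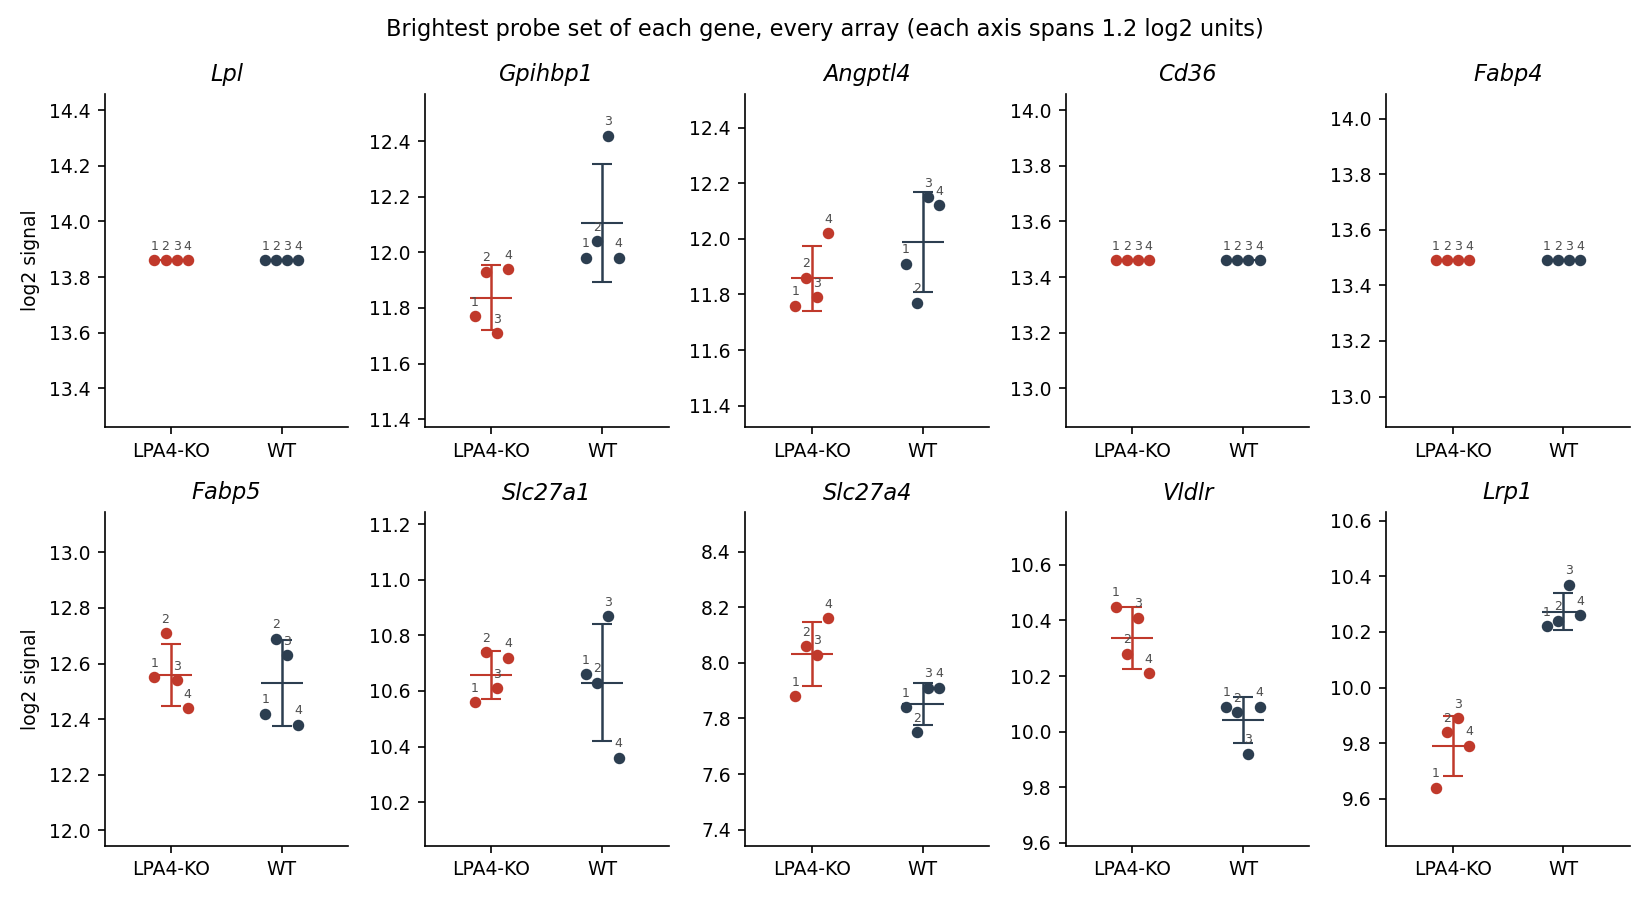
Log2 signal of the brightest probe set of each of the 10 genes, with a point per array labelled by its replicate number, and the mean and SD of each genotype (n = 4 each) as a bar. All axes span the same range of log2 units; Vldlr was higher and Lrp1 and Gpihbp1 lower in all 4 LPA4-KO arrays, whereas the points of Lpl, Cd36 and Fabp4 lie on a flat line.

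Lpar4 itself was represented by 3 probe sets that disagreed. Probe set 1452424_at read 5.74, 5.91, 5.81 and 5.78 in LPA4-KO arrays, against 6.80, 6.98, 6.89 and 7.04 in WT arrays, a difference of -1.12 (limma adjusted p = 0.0104 over all probe sets, 0.0783 with the replicate block and 0.0182 with it over varying probe sets). All 4 LPA4-KO arrays read higher with 1434186_at and with 1439665_at, by 0.71 and 0.53 (adjusted p = 0.145 and 0.128 over all probe sets, 0.0359 and 0.0312 over varying probe sets), and where any of the 3 lies relative to the deleted part is not known here. Fat cell markers were bright, with all 7 measured genes of the list at or above percentile 93.5 of all probe sets, and their mean level was 12.03 to 12.16 in LPA4-KO arrays, against 11.97 to 12.02 in WT arrays. The mean of 10 macrophage genes was 9.48 to 9.65 in LPA4-KO arrays and 8.67 to 9.85 in WT arrays. Skeletal muscle genes parted the arrays by replicate number and not by genotype (8.80 and 9.47 in LPA4-KO 1 and 2, 6.39 and 7.16 in LPA4-KO 3 and 4; 9.11 and 8.81 in WT 1 and 2, 6.46 and 7.01 in WT 3 and 4), so differences are also given within numbers 1 and 2 and within 3 and 4. Ribosomal 18S RNA, read by 3 control probe sets, was higher in all 4 LPA4-KO arrays (0.44, 0.22 and 0.28), while the gap between the 3' and 5' control probe sets differed by 0.04 for Actb and 0.02 for Gapdh (exact permutation p = 0.6 and 0.8). The part of any of these in the results below was not tested, and in whole tissue fewer cells of a type and less RNA per cell cannot be told apart.

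The enzyme gene Lpl was among the brightest signals on the arrays. Probe set 1415904_at, the brighter of its pair, averaged 13.86 in both genotypes, with 5 of 45037 probe sets brighter, and stood 0.27 to 0.44 below the brightest probe set of each array. Its values were near constant, with an SD of 6.67e-05 over the 8 arrays, so this probe set carries no usable difference between genotypes. The other probe set, 1431056_a_at, read 13.26, 13.21, 13.18 and 13.14 in LPA4-KO arrays, against 13.11, 13.03, 13.04 and 13.06 in WT arrays. All 4 LPA4-KO values lay above all 4 WT values, yet the gap was small, 0.14 ± 0.03 (SE), and did not pass limma over all probe sets (adjusted p = 0.0755) or over varying probe sets (0.0585).

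Gpihbp1, whose protein anchors the enzyme on capillary endothelium, read 11.77, 11.93, 11.71 and 11.94 in LPA4-KO arrays, against 11.98, 12.04, 12.42 and 11.98 in WT arrays. Every LPA4-KO array lay below every WT array, although the nearest values of the genotypes were close and WT 3 stood above the rest. The difference was -0.27 ± 0.12 (SE; 95% interval -0.55 to 0.02), which did not pass limma over all genes (adjusted p = 0.246) or varying genes (0.103), and it was -0.16 without WT 3. It was -0.16 within numbers 1 and 2 and -0.37 within numbers 3 and 4. Markers of blood endothelium, the cells that make GPIHBP1, moved the same way: all 9 varying genes of 10 listed had a negative difference, with a median of -0.22, and Esam, an endothelial adhesion molecule, fell (-0.33, limma adjusted p = 0.0381 over all genes, 0.155 with the replicate block and 0.0371 with it over varying genes). The mean of the 10 was 8.81 to 9.04 in LPA4-KO arrays and 8.98 to 9.23 in WT arrays, so the genotypes overlapped there. That mean differed by -0.10 within numbers 1 and 2 and by -0.34 within numbers 3 and 4, and WT 3 was its highest array. The part of these cells in the Gpihbp1 difference was not tested.

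Angptl4, whose protein unfolds and inactivates the enzyme and which is known as a fasting-induced target of PPAR nuclear receptors, gave different answers with its 2 probe sets. The brightest, 1417130_s_at, read 11.76, 11.86, 11.79 and 12.02 in LPA4-KO arrays, against 11.91, 11.77, 12.15 and 12.12 in WT arrays, and the genotypes overlapped (-0.13 ± 0.10, SE; limma adjusted p = 0.522 over all genes). The dimmer probe set, 1453410_at, read 6.96, 6.78, 6.90 and 6.80 in LPA4-KO arrays, against 7.49, 7.21, 7.38 and 7.64 in WT arrays. There the groups were separate, and the value fell by 0.57 on the log2 scale (95% interval -0.80 to -0.33; limma adjusted p = 0.0489 over all probe sets, 0.00992 over varying probe sets and 0.0288 there with the replicate number as a block). With the block over all probe sets it did not pass (adjusted p = 0.154). The mean of both probe sets differed by -0.35 and did not pass over all genes (adjusted p = 0.0695). The bright probe set carries a suffix for probes shared between transcripts, and which Angptl4 transcripts each detects is not given in the sources used here.

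Cd36, the membrane protein that takes up long-chain fatty acids, had 3 probe sets, and none showed a difference between genotypes. Its brightest, 1450883_a_at, averaged 13.46 in both genotypes, with 19 probe sets brighter, and was near constant, as was 1423166_at at 13.16. The varying probe set 1450884_at read 11.29, 11.29, 11.22 and 11.38 in LPA4-KO arrays, against 11.21, 11.33, 11.46 and 11.24 in WT arrays. The ranges overlapped almost fully, and the difference of -0.01 had a 95% interval of -0.17 to 0.14 in limma over all probe sets (adjusted p = 0.931).

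The fatty acid transport proteins couple uptake to activation by coenzyme A. Slc27a1, which encodes FATP1, the form typical of fat and muscle, read 10.56, 10.74, 10.61 and 10.72 in LPA4-KO arrays, against 10.66, 10.63, 10.87 and 10.36 in WT arrays. The LPA4-KO values lay inside the WT range (0.03, 95% interval -0.24 to 0.30; limma adjusted p = 0.913), and its other probe set gave -0.11. Slc27a4, which encodes FATP4, read 7.88, 8.06, 8.03 and 8.16 in LPA4-KO arrays, against 7.84, 7.75, 7.91 and 7.91 in WT arrays. Of the 4 LPA4-KO arrays, 3 lay above all WT arrays, and the difference of 0.18 ± 0.07 (SE) did not pass limma over all genes (adjusted p = 0.178) or over varying genes (0.0842). Its size was 0.17 within numbers 1 and 2 and 0.19 within numbers 3 and 4.

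The fatty acid binding proteins carry fatty acids through the cytoplasm, and Fabp4 is the abundant form of fat cells. Its 4 probe sets showed no difference that passed. The brightest, 1417023_a_at, averaged 13.49 in both genotypes, with 13 probe sets brighter, and was near constant, as was 1451263_a_at at 12.42. The varying probe set 1424155_at read 12.19, 12.32, 12.11 and 12.00 in LPA4-KO arrays, against 12.31, 11.75, 12.14 and 12.14 in WT arrays. WT 2 was the lowest there and the ranges overlapped, with a difference of 0.07 (95% interval -0.25 to 0.39; limma adjusted p = 0.821), and 1425809_at gave 0.01 (-0.29 to 0.31). Fabp5, the form shared with skin, macrophages and endothelium, read 12.55, 12.71, 12.54 and 12.44 in LPA4-KO arrays, against 12.42, 12.69, 12.63 and 12.38 in WT arrays. Its genotypes overlapped as well (0.03, 95% interval -0.20 to 0.25; limma adjusted p = 0.904), and both of its probe sets gave 0.03.

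Among all 45037 probe sets, high signal and a near-constant value did not go together: 9 of the 53 probe sets with a mean above 13 had an SD under 0.01, against 78.7% of all probe sets. Of the 25 probe sets of the 10 genes, 5 were near constant, and all 5 belong to Lpl, Cd36 and Fabp4, with means from 12.42 to 13.86. Their differences were at most 0.000142, and how such values arose is not given in the sources used here. For these 3 genes the data therefore speak through the remaining 4 probe sets only.

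**Figure D2:**
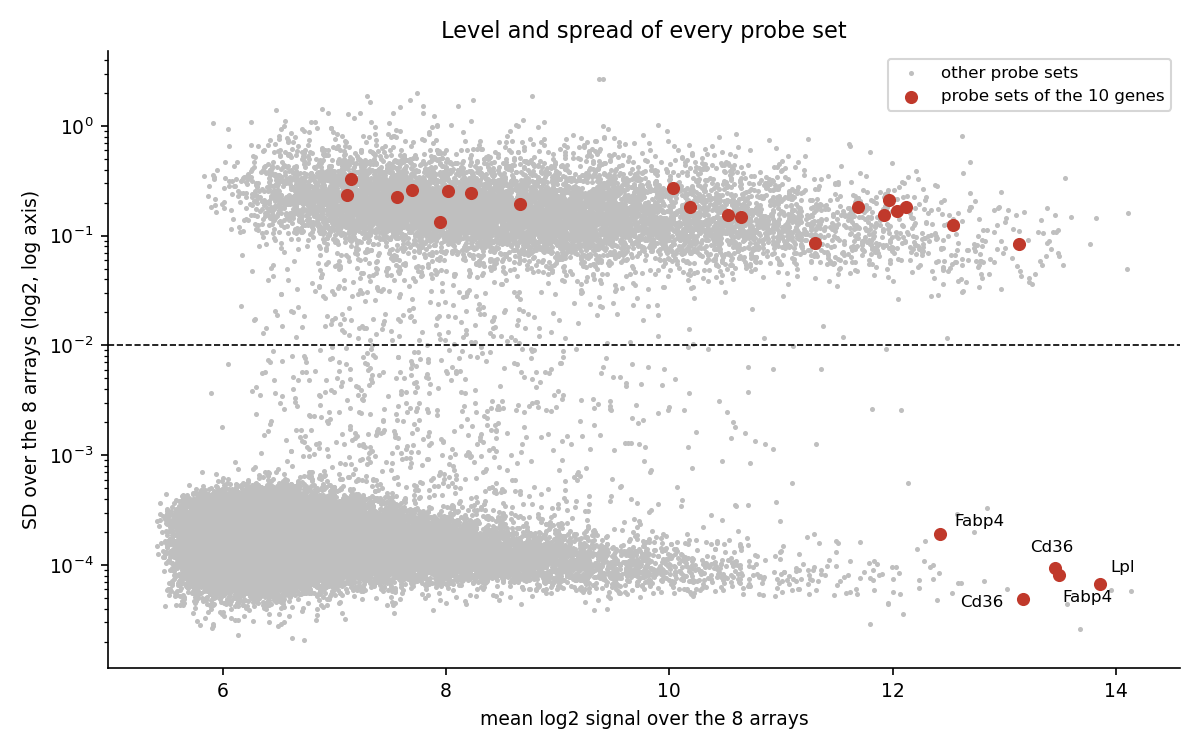
Mean log2 signal (horizontal) and SD over the 8 arrays (vertical, log axis) of all probe sets except controls, with the 25 probe sets of the 10 genes in red and a dashed line at an SD of 0.01. The 5 near-constant red points, labelled with their genes, lie at the right end of the lower band, while other probe sets just as bright vary.

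The VLDL receptor binds triglyceride-rich particles through apolipoprotein E and aids their lipolysis in fat and muscle. Vldlr was higher in LPA4-KO fat with every probe set on the array. Its brightest probe set, 1434465_x_at, read 10.45, 10.28, 10.41 and 10.21 in LPA4-KO arrays, against 10.09, 10.07, 9.92 and 10.09 in WT arrays. The genotypes were separate, with means of 10.34 ± 0.11 in LPA4-KO arrays and 10.04 ± 0.08 in WT arrays (SD, n = 4 each) and a difference of 0.30 ± 0.07 (SE; 95% interval 0.13 to 0.46), which is 1.23-fold. It did not pass in limma over all genes (adjusted p = 0.0665) and passed over varying genes (0.0219), but not there with the replicate block (0.0534). Over varying genes it was also lost without LPA4-KO 1 or without LPA4-KO 3 (highest adjusted p = 0.0629). The difference was 0.29 within numbers 1 and 2 and 0.30 within numbers 3 and 4.

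The other 5 Vldlr probe sets gave differences of 0.31 to 0.44, and none of the 6 had overlapping genotypes, beside 32.5% of varying probe sets with none. Probe set 1438258_at read 8.49, 8.28, 8.52 and 8.47 in LPA4-KO arrays, against 8.10, 8.07, 7.87 and 8.02 in WT arrays. It was the only 1 of the 6 to pass limma over all probe sets (adjusted p = 0.0483), where 1.91% of probe sets passed. All 6 passed over varying probe sets, where 25.6% did, and 4 of the 6 with the replicate block, where 16.2% did. The 6 probe sets read the same 8 RNA samples and may detect the same transcripts, so their accord is no independent replication, and the suffixes of 1434465_x_at and 1451156_s_at mark probes shared with other sequences. Of the 7 measured adipocyte markers, 5 had a positive and 2 a negative difference. Adipoq and Retn, both products of fat cells, were higher over all genes (0.25 and 0.26; limma adjusted p = 0.0486 and 0.0465) but did not pass there with the replicate block (0.175 and 0.107), and over varying genes with the block Retn passed (0.0337) and Adipoq did not (0.0534). Lep, the leptin gene, named after its value was seen, had a difference of -0.38 (adjusted p = 0.244 over all genes) and was the 1 marker lower in the fit over varying genes with the block. The part of these markers in the Vldlr difference was not tested.

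LRP1 is a large endocytic receptor for apolipoprotein E remnants, lipase complexes and many proteases, made in fat cells, fibroblasts and macrophages. Lrp1 fell in LPA4-KO fat, the largest difference among the brightest probe sets of the 10 genes. It read 9.64, 9.84, 9.89 and 9.79 in LPA4-KO arrays, against 10.22, 10.24, 10.37 and 10.26 in WT arrays. The gap between the genotypes was wider than the spread within either, with means of 9.79 ± 0.11 in LPA4-KO arrays and 10.27 ± 0.07 in WT arrays (SD, n = 4 each) and a difference of -0.48 ± 0.06 (SE; 95% interval -0.64 to -0.33), or 0.715 of the WT level. It passed limma over all genes (adjusted p = 0.0234) and over varying genes, as it did there with the replicate block (0.00544 and 0.0216), but not over all genes with the block (0.0729), where 0 genes passed. Over all genes the call was lost without LPA4-KO 3, LPA4-KO 4 or any of the 4 WT arrays (adjusted p from 0.0423 to 0.0622 over the 8 omissions). Over varying genes it was kept in all 8 omissions (0.0128 to 0.0165).

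The difference of Lrp1 was -0.49 within numbers 1 and 2 and -0.48 within numbers 3 and 4. Its second, dimmer probe set, 1442849_at, read 7.51, 7.50, 7.19 and 7.55 in LPA4-KO arrays, against 7.57, 7.80, 7.93 and 7.47 in WT arrays. The genotypes overlapped there because WT 4 was low, and the difference of -0.26 did not pass (limma adjusted p = 0.337 over all probe sets). Of the cell types that make LRP1, the macrophage list had 9 of 9 varying genes above 0, yet its mean differed by -0.13 within numbers 1 and 2 and by 0.75 within numbers 3 and 4. The list of 6 stromal progenitor genes had 5 of 6 above 0, and its mean differed by -0.19 within numbers 1 and 2 and by 0.37 within numbers 3 and 4. In both lists 0 genes passed limma over all genes, and 0 had an unadjusted p under 0.05. The mean of the adipocyte markers differed by 0.13 within numbers 1 and 2 and by 0.06 within numbers 3 and 4. The part of these cell types in the Lrp1 difference was not tested.

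**Figure D3:**
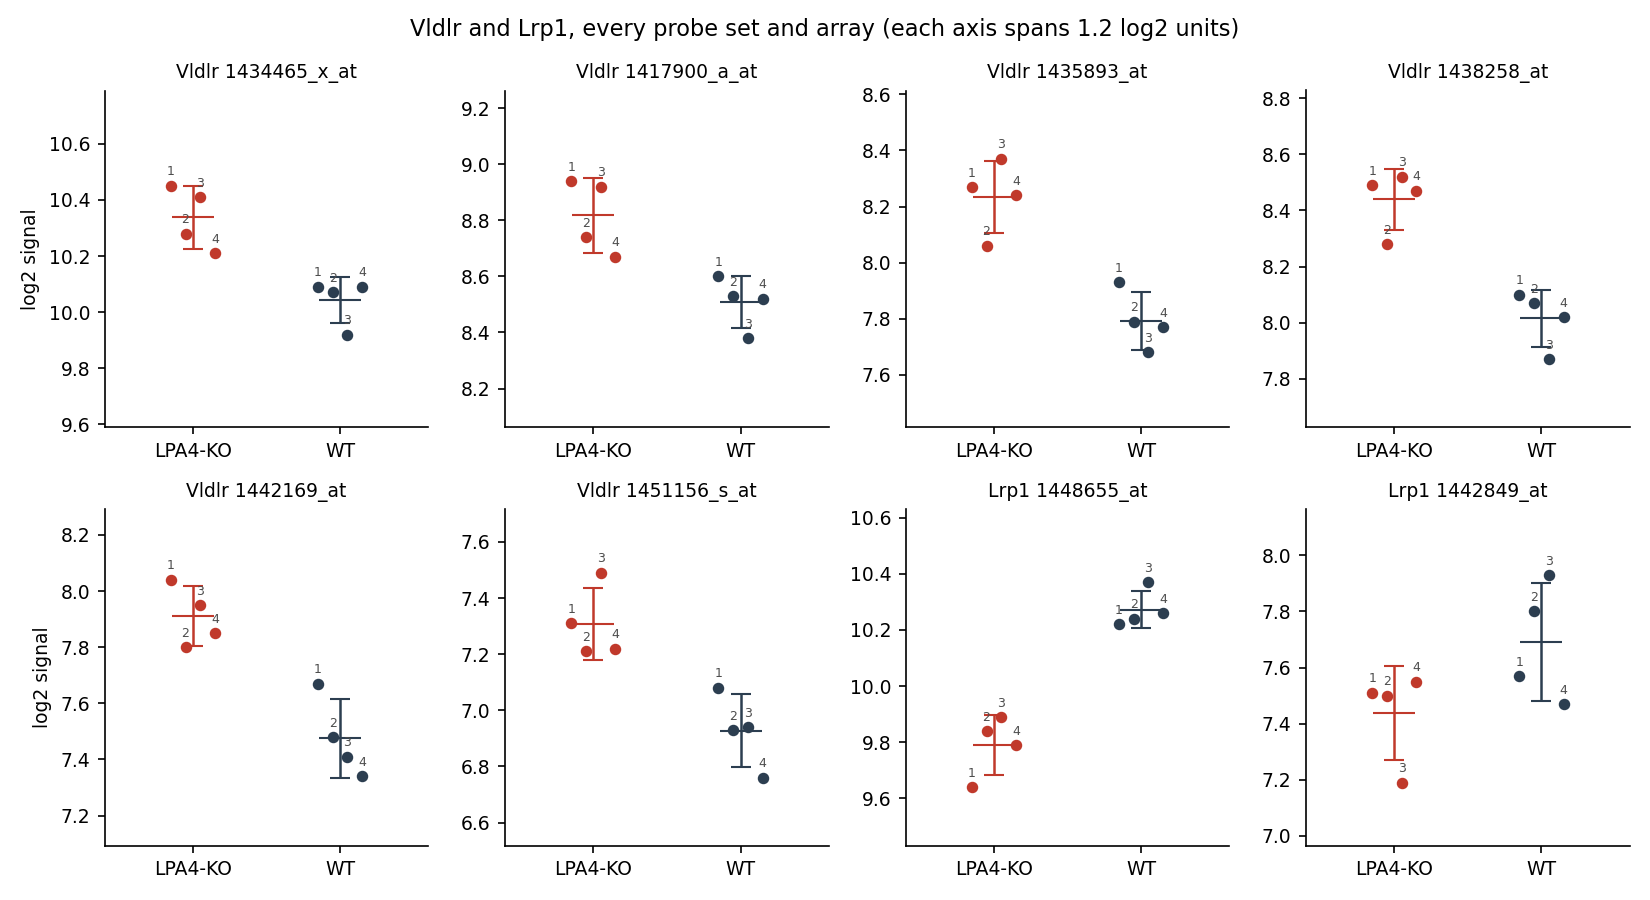
Log2 signal of the 6 Vldlr and 2 Lrp1 probe sets in every array, labelled by replicate number, with the mean and SD of each genotype (n = 4 each). All 6 Vldlr panels show the LPA4-KO points above the WT points, the first Lrp1 panel shows them below, and the second Lrp1 panel shows overlap.

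The promoters of these 2 genes are shown because they are the members with the smallest p over all genes, with differences of opposite sign. RefSeq windows of 250 bases before to 50 after a transcript start (GRCm38.p6) were given for 5 of the 10 genes. Capitals mark matches, on either strand, to any of 3 motifs searched, AGGTCA (the hexamer bound by PPAR and related nuclear receptors), ACGTG (the core of hypoxia response elements) and GGGCGG (the GC box bound by SP1). The first is the second of 2 Vldlr windows, at chr19:27216770-27217069 on the plus strand, and the other the only Lrp1 window, at chr10:127621099-127621398 on the minus strand.
Vldlr: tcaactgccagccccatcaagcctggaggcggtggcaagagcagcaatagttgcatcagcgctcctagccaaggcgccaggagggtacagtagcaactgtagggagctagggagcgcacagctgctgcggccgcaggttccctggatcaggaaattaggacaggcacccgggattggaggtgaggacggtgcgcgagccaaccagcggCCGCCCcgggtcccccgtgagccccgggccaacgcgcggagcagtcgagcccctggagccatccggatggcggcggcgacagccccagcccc
Lrp1: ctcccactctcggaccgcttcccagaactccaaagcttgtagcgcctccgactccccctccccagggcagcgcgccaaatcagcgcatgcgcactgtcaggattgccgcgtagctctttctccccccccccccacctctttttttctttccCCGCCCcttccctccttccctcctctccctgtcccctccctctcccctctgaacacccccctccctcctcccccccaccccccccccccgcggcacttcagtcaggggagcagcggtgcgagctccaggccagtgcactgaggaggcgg
Each window held 1 GC box, read as CCGCCC on the strand shown, a motif present in 35.7% of 32851 such windows, and 0 matches to the other motifs, which 16.3% (AGGTCA) and 19.6% (ACGTG) of windows hold. Their GC content was 68% for the Vldlr window shown and 67.7% for the Lrp1 window, against a median of 52.7% over all windows. The first Vldlr window, at chr19:27216234-27216533 on the plus strand and not shown, had 43% GC and 0 matches to any of the 3 motifs.

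**Figure D4:**
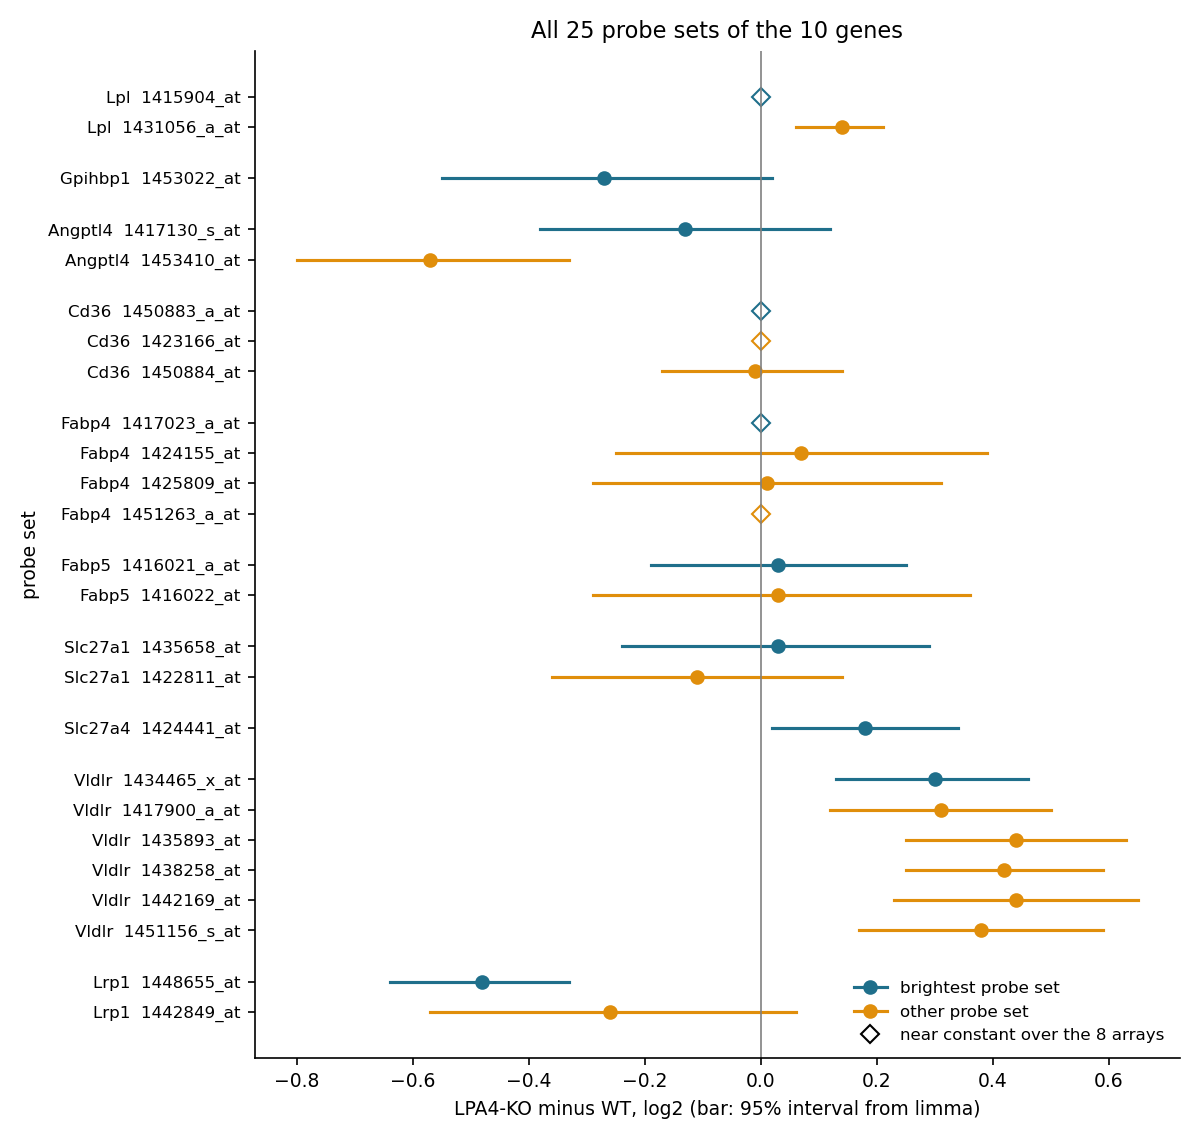
LPA4-KO minus WT difference (log2) of all 25 probe sets of the 10 genes with the 95% interval from limma, the brightest probe set of each gene in blue, others in orange, and near-constant probe sets as open diamonds. All 6 Vldlr probe sets lie to the right of 0, both Lrp1 and both Angptl4 probe sets to the left, and those of Cd36, Fabp4, Fabp5 and Slc27a1 have intervals that span 0 or are near constant at 0.

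Members with like roles were set against each other within each array. Vldlr minus Lrp1 was 0.82, 0.44, 0.52 and 0.42 in LPA4-KO arrays, against -0.13, -0.17, -0.45 and -0.18 in WT arrays. The balance of these 2 receptors was higher in every LPA4-KO array, by 0.78 ± 0.12 (SE), and this was 0.78 both within numbers 1 and 2 and within numbers 3 and 4. The exact permutation p was 0.0286, the smallest that 4 against 4 arrays can give, and 0.114 after adjustment over the 4 contrasts, so it did not pass. Vldlr alone was higher and Lrp1 alone lower in every LPA4-KO array. Full separation of their difference, and hence that p, followed from the 2 genes and adds no evidence beyond them. Slc27a1 minus Slc27a4 differed by -0.15 (exact permutation p = 0.2), Angptl4 minus Lpl by -0.13 (0.229) and Fabp5 minus Fabp4 by 0.03 (0.8), and the genotypes overlapped in all 3. With the brightest probe sets and single arrays left out, Angptl4 minus Lpl ran from -0.20 to -0.07. With the mean of each gene's probe sets in place of the brightest, and all arrays kept, Angptl4 minus Lpl differed by -0.42 (exact permutation p = 0.0286, 0.0571 adjusted over the 4 contrasts). At the brightest probe sets, the contrasts with Lpl and Fabp4 used near-constant values of these 2 genes and hence repeat Angptl4 and Fabp5. With the mean of probe sets, Lpl itself differed by 0.07 and Angptl4 by -0.35.

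Other genes of lipoprotein handling and fatty acid transport were read from a list of 54, of which 48 were measured and 28 varied. In limma over all genes 2 rose and 3 fell, where 2.39% and 1.64% of genes did. Over varying genes 7 rose and 8 fell, where 14.9% and 12.2% did, and with the replicate block 4 rose and 6 fell, where 10.3% and 9.24% did. Separate genotypes were seen in 18 of the 28, beside 33.2% of varying genes, and the median difference was -0.08 over the 28 and 0.01 over all varying genes. Of the 5 calls over all genes, 0 were left without LPA4-KO 3 or without WT 2, and 1 to 2 wider-list genes passed without any other. Sort1 was among those each time, joined in some by Hspg2 or Apoe, whereas Lmf1 and Apoc1 passed in none of the omissions.

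Of the genes that sort or mature the lipase, Sort1 and Lmf1 rose. Sort1, which encodes sortilin, a sorting receptor that binds lipoprotein lipase and carries it inward, read 10.55, 10.36, 10.41 and 10.30 in LPA4-KO arrays, against 9.95, 9.91, 9.86 and 9.93 in WT arrays. These groups were far apart relative to their spread, and Sort1 rose by 0.49 ± 0.05 (SE; limma adjusted p = 0.0154 over all genes, 0.087 with the replicate block and 0.0218 with it over varying genes). Its relative Sorl1 was higher in all 4 LPA4-KO arrays (0.57) and passed over varying genes, also with the block (0.0329 and 0.0271), not over all genes (0.119). Lmf1, the chaperone that folds the lipase in the endoplasmic reticulum, rose by 0.18 (0.045 over all genes, 0.13 with the replicate block and 0.058 with it over varying genes). Sel1l, which the lipase needs to leave that compartment, was lower without passing (-0.18, adjusted p = 0.145).

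Of the apolipoproteins carried by the particles, Apoe and Apoc1 fell. Apoe, the ligand of VLDLR and LRP1, read 12.69, 12.73, 12.80 and 12.76 in LPA4-KO arrays, against 12.98, 12.94, 12.96 and 12.89 in WT arrays. The groups were separate and Apoe fell by 0.20 on the log2 scale (limma adjusted p = 0.0287 over all genes and 0.13 with the replicate block; 0.0515 with it over varying genes). Apoc1, which inhibits lipolysis and uptake and lies beside Apoe in the GRCm38.p6 gene table, fell by 0.30 on the log2 scale (adjusted p = 0.0492, 0.114 with the replicate block and 0.032 with it over varying genes). Apoc2, the cofactor that the lipase needs, read 7.08, 7.57, 7.70 and 7.47 in LPA4-KO arrays, against 8.15, 8.19, 8.50 and 8.12 in WT arrays. It was lower in all 4 LPA4-KO arrays, with a difference of -0.79 ± 0.16 (SE), did not pass over all genes (adjusted p = 0.0504) and passed over varying genes, also with the block (0.0117 and 0.0218). Apoc3, a lipase inhibitor, differed by -0.88 with wider spread (adjusted p = 0.108 over all genes; 0.0275 and 0.0426 over varying genes).

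The heparan sulfate core protein perlecan, encoded by Hspg2, read 8.60, 8.66, 8.54 and 8.52 in LPA4-KO arrays, against 8.83, 8.90, 9.01 and 8.97 in WT arrays, and fell by 0.34 on the log2 scale (limma adjusted p = 0.0287 over all genes, 0.144 with the replicate block). Hspg2 was not among the endothelial markers given above, and the part of any cell type in its difference was not tested. Its probe set and that of Pcsk5 carry the suffix of probes shared between transcripts. The syndecans Sdc1 and Sdc4 were lower without passing (-0.21 and -0.41; adjusted p = 0.191 and 0.156), and Pcsk5, a convertase that cleaves lipase and ANGPTL proteins, differed by -0.29 (0.0878 over all genes, 0.0285 over varying genes and 0.0765 there with the block).

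Genes that handle fatty acids inside the cell differed in both directions without passing over all genes. Over varying genes the acyl-CoA binding protein Dbi (0.22, limma adjusted p = 0.0372) and the caveolins Cav1 and Cav2 (0.19 and 0.30; 0.0483 and 0.0344) were higher, and the acyl-CoA synthetase Acsl4 was lower (-0.28; 0.0233). With the replicate block Dbi (0.0748) and Cav1 (0.0813) were lost. Vegfb, an endothelial growth factor, was 0.40 higher (0.0282 over varying genes). Of the nuclear receptors that drive several of the 10 genes, Rxra was lower over varying genes (-0.30; 0.0345), Pparg differed by -0.08 without passing (0.181) and Ppara by 0.31 (0.181).

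**Figure D5:**
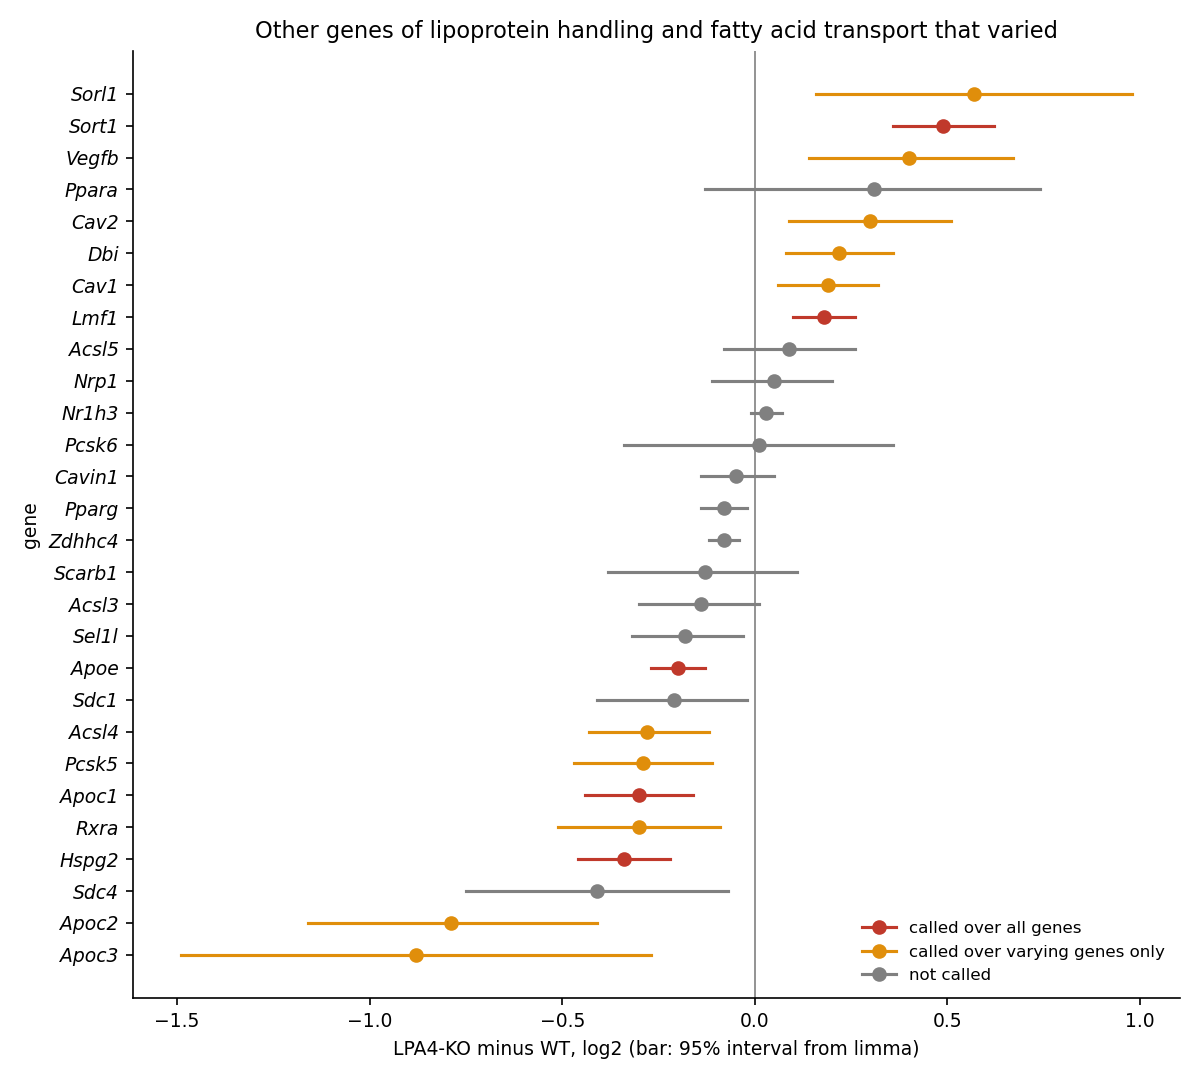
LPA4-KO minus WT difference (log2) with the 95% interval from limma for the 28 varying genes of the wider list, ordered by difference, in red where called over all genes, in orange where called over varying genes only and in grey where not called. Sort1 and Lmf1 are the red points to the right of 0, and Apoe, Apoc1 and Hspg2 those to the left.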

How the data were processed

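The authors deposited a table of log2 signals for 45101 probe sets and 8 arrays; the log2 scale was read from the values (4.93 to 14.30; medians per array 6.73 to 6.74). Per the labels' protocols, 100 ng of total RNA per mouse was amplified and labelled with biotin, and per the submitters' processing notes R 2.14.0 was used; for background correction, normalisation and summarisation no method is given in the sources used here. Control probe sets (64) were left out of the tests, and 34945 probe sets had a single gene symbol. The brightest probe set of a gene entered limma 3.58.1 (R 4.3.3; lmFit and eBayes, two-sided, Benjamini-Hochberg over all genes, threshold 0.05), and probe sets were also tested over all 45037. The fit was checked on simulated data. Contrasts within arrays used two-sided exact permutation tests over the 70 assignments of arrays (Python 3.11.15). Leaving out near-constant genes (SD under 0.01) changes both what is tested and the variance prior, so calls over varying genes are given beside those over all genes. That SD is over all 8 arrays and so includes the genotype difference that is then tested.

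The members, lists, tests and alternatives were chosen with earlier results of these data known; the brightest varying probe set, and single arrays left out among varying genes, were added after seeing the values. Named are the 10 members and their probe sets, Lpar4, the called or lowest-p genes of the wider list and up to 2 markers per list; other wider-list genes named were chosen after their values were seen, for their roles. Same-numbered LPA4-KO and WT arrays deviated together from their genotype means (correlations across genes of 0.315, 0.486, 0.189 and 0.244, each over the 0.1 set as the limit), so the numbers were treated as pairs; the pairing comes from the data, since the labels do not say what a number shares. Arrays of different number also deviated together within numbers 1 and 2 (0.107 and 0.22) and within numbers 3 and 4 (0.364 and 0.266, above the same-number values there), and all 8 correlations across that split were negative, so the check shows the split of numbers more than pairing by single number. Fits with either as a block are therefore given. The labels call the arrays biological replicates, and their number limits the precision of every value. Mammary epithelium markers, also listed, were near constant in all 6 genes.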

Additional observations from a re-analysis of the deposited data

Results flagged for a closer look

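An array stood far from the rest of its genotype in 5 of 70 sets of 4 values examined; chance gives about 1 in 20. WT 3 was that array in 4 of them: it was high for Gpihbp1 (12.4), low for the brightest Vldlr probe set (9.92), low for the within-array difference Vldlr minus Lrp1 (-0.454) and high for the mean of the 10 genes (11.7). These 4 are not independent, since the within-array difference contains the Vldlr value and the mean contains both Gpihbp1 and Vldlr. In LPA4-KO 3 the dimmer Lrp1 probe set was low (7.19). Without WT 3 the difference was -0.16 for Gpihbp1, 0.26 for Vldlr, -0.45 for Lrp1 and 0.71 for Vldlr minus Lrp1. WT 3 also had the lowest mean of macrophage genes (8.67) and of stromal progenitor genes (9.12) of the 8 arrays. Its mean of blood endothelial genes was the highest (9.23).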

How the results depend on the processing

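Of 18193 genes, 733 passed in the fit over all genes; 0 did with the replicate block (3703 at an unadjusted p under 0.05), 1402 over varying genes, 1417 there with the split of numbers (1 and 2, 3 and 4) as a block, and 10 to 253 when single arrays were left out. Of the 10 members, 1 passed; 0 did with the replicate block, 2 over varying genes, 2 there with that split as a block, 2 with the mean of probe sets and 4 with quantile normalisation. The last added Lpl, Cd36 and Fabp4, whose values are near constant as deposited. Of all 18193 genes, 765 passed with the mean of probe sets and 584 with quantile normalisation. Leaving out single arrays left 0 to 1 members, or 1 to 2 over varying genes, where Slc27a4 replaced Vldlr without LPA4-KO 1 (0.23, limma adjusted p = 0.0479) and Lrp1 alone passed without LPA4-KO 3. In the same fits over varying genes, 636 to 1149 of all 5173 genes passed. Of the wider list, 5 passed; 0 did with the replicate block, 15 over varying genes, 10 there with the replicate block, 14 with that split as a block, 8 with the mean of probe sets, and 0 to 2 with single arrays left out. Signs turned where values were near 0: Lpl was -0.08 with quantile normalisation, Cd36 -0.00469 with the mean of probe sets, -0.07 with quantile normalisation and -0.01 with its brightest varying probe set, Fabp4 0.02 and 0.07 with the mean of probe sets and with its brightest varying probe set, and Slc27a1 -0.04 with the mean of probe sets. With single arrays left out, Fabp5 ran from -0.02 to 0.08, Slc27a1 from -0.06 to 0.11, and Fabp5 minus Fabp4 from -0.02 to 0.08. Vldlr stayed between 0.26 and 0.38 and Lrp1 between -0.52 and -0.37 in all 27 alternatives each. Many of these could not move the difference. The blocks, the choice of genes tested, the intensity trend and the brightest varying probe set repeat 0.30 for Vldlr and -0.48 for Lrp1. Single arrays left out over varying genes repeat the differences over all genes. The replicate block gave Vldlr minus Lrp1 an exact paired permutation p of 0.125 (0.333 adjusted), the smallest 4 pairs can give. Angptl4 was -0.35 and Angptl4 minus Lpl -0.42 with the mean of probe sets (adjusted p = 0.0695 and 0.0571). Near-constant members have no value over varying genes. The causes of these changes were not tested, and signal over background was not analysed here.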

Other observations

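Patterns over the 8 arrays were compared with those of the 2 members with the smallest p, among 5166 varying genes that are no members. Most like Lrp1 were Apoc2 (Pearson r = 0.986), the ribosomal protein gene Rpl41 (0.984) and the imprinted zinc finger gene Zim1 (0.984), whose differences were -0.79, -0.02 and -1.17. Most like Vldlr were Adipoq (0.993), Ccnh (0.990) and the ketone-using enzyme gene Oxct1 (0.989), with differences of 0.25, 0.29 and 0.51. These r describe 8 arrays that share the genotype difference and the split by replicate number, and 68 genes reached 0.95 with Lrp1 and 87 with Vldlr.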
